A study of Mus musculus with 2 samples.

Results

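The 8 genes described here encode the selectins of endothelium, a selectin ligand and the endothelial receptors that leukocytes hold on to: Selp, Sele, Selplg, Icam1, Icam2, Vcam1, Madcam1 and Aoc3. They were chosen by gene name from the annotation of the array, and make up 8 of 31883 genes and unnamed transcripts on it, with 11 probes at 20 spots. The RNA came from LSEC, the liver sinusoidal endothelial cells, which form the porous wall of the hepatic capillaries. One preparation came from a WT (wild-type) mouse and the other from an ob/ob mouse, which lacks functional leptin and becomes obese; both were male and 8 weeks old. Livers were digested with collagenase and the cells of both genotypes spent a night in DMEM medium with 10% FBS before RNA extraction. Each genotype is 1 mouse on 1 one-colour Agilent array, so a difference is one between 2 arrays, and replicates to check it against do not exist.

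Leukocytes leave the blood in steps. Selectins on endothelium catch passing cells by their sugar-bearing ligands and let them roll, chemokines then activate leukocyte integrins, and the integrins bind receptors of the immunoglobulin family, which brings the cell to a stop. P-selectin (Selp) is stored in Weibel-Palade bodies, granules of endothelium, and in platelet granules, while E-selectin (Sele) is made when endothelium is activated by cytokines. PSGL-1 (Selplg) is the main selectin ligand on leukocytes. ICAM-1 and ICAM-2 bind the integrins of the beta-2 family, VCAM-1 binds the integrin VLA-4, and MAdCAM-1 is the address molecule for gut-homing lymphocytes that carry integrin alpha-4 beta-7. VAP-1 (Aoc3) is an amine oxidase on the endothelial surface. In liver sinusoids selectins are regarded as less needed for leukocyte arrest than in other vessels.

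The values rest on single oligonucleotide probes, so the probes of the members that differed by 2-fold or more are shown here by the first 30 of their 60 bases, 5′ to 3′, as the deposited files hold them. Their positions are on mouse build mm9, per the file headers. All letters are lower case because no base within a probe is singled out.
Selp, chr1:166079660-166079719, + strand: atgcctgctttaagatctcctgggtcttcc
Sele, chr1:165987726-165987785, + strand: gagtatttaacggtagctggttttaagaca
Selplg, chr5:114267807-114267834, - strand: catggtaacccggtaagagaggagcttttg
Selplg, other probe, chr5:114269206-114269265, - strand: attatcctcatcttggcttctctggccacc
Icam1, chr9:20832290-20832349, + strand: cctcttatgtttataaccgccagagaaaga
Madcam1, chr10:79131212-79131271, + strand: tctataagtttctcctgacttctgggcttt
Madcam1, other probe, chr10:79129132-79129191, + strand: agccctacatcctgacctcatcaagtactg
The file gives 28 bases of position for the brighter Selplg probe. The longest run that any of the 11 member probes shared with a probe of another gene was 13 to 15 bases, and the Selp and Sele probes shared no run of 8 bases. No annotation of build mm9 was used here, so the exon or untranslated region that holds each probe is not stated.

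Signals are processed intensity, the brightness of a spot after the scanner software subtracted its background. Differences are log2, ob/ob minus WT, after each array was divided by its 75th percentile of intensity, 988.6 on the WT and 1430 on the ob/ob array. The software flags spots well above background; a probe with that flag at more than 50% of its kept spots was taken as measured, and 18134 genes were measured on both arrays. Their median difference was -0.12. The error given beside a difference is the SD from the error model of the scanner, or the SD over repeated spots; neither holds the spread between mice or cell preparations. Of all spots, 58.6% on the WT and 64.8% on the ob/ob array were well above background. The local background of the member spots was 58 to 68 on the WT and 56 to 68 on the ob/ob array, against array medians of 63 and 60.

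Of the 8 members, 7 were measured on both arrays. Selp, Sele, Selplg and Icam1 were at least 2-fold higher in ob/ob LSEC, Madcam1 was at least 2-fold lower, and Icam2 and Vcam1 lay within 2-fold. Aoc3 stood above background on neither array. Of the 18134 genes, 5.82% were at least 2-fold higher (1055 genes) and 2.29% at least 2-fold lower (415 genes). The median of the 7 members was 1.21. At 1.5-fold the members counted 5 higher and 1 lower, where 9.80% and 9.09% of all genes passed. At 3-fold they counted 3 higher and 0 lower, where 3.0% and 0.502% of all genes passed.

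**Figure D1:**
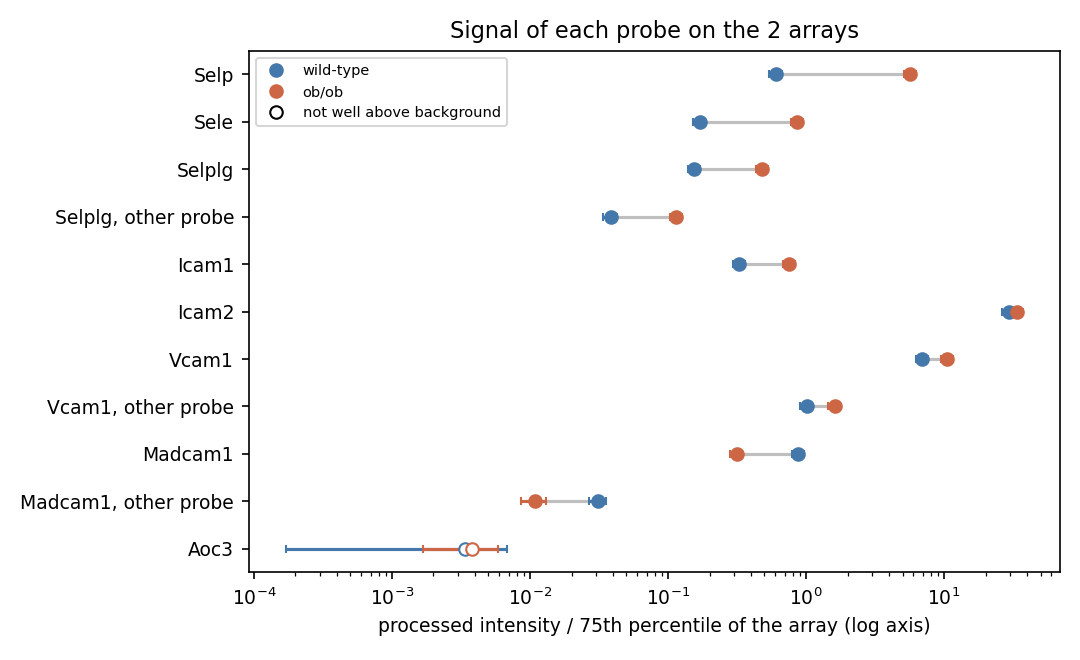
Processed intensity of each of the 11 member probes on the WT and ob/ob arrays, divided by the 75th percentile of the array (log axis), with bars for 1 SD of the scanner's error model (the lower bar ends at 5% of the value where the SD exceeds it). The line between the 2 points of a probe is its difference; levels of different probes cannot be set against each other. Both probes of Selplg, of Vcam1 and of Madcam1 moved the same way, and the Aoc3 points overlap below background.

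Selp had the largest difference of the 8 genes. Its probe was printed at 10 spots, of which 1 was flagged by the scanner software on both arrays and left out. The other 9 spots read 568 at the lowest, 587 at the median and 647 at the highest on the WT array. On the ob/ob array they read 7620, 8040 and 9060. No spot of one array came near any spot of the other. The log2 difference was 3.24 ± 0.07 (SD, n = 9 spots), a 9.45-fold higher level in ob/ob LSEC, with single spots between 3.09 and 3.33. The 10 spots are 1 RNA read 10 times, so their SD is technical; over 259 probes printed 10 times, the median SD was 0.05. Among the 18134 genes measured on both arrays, 57 (0.314%) were as high or higher.

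**Figure D2:**
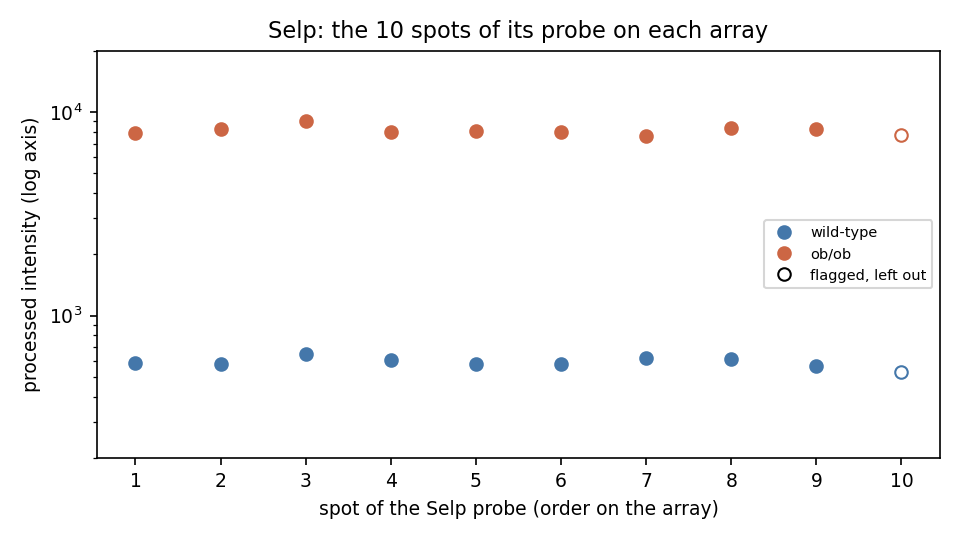
Processed intensity (log axis) at each of the 10 spots of the Selp probe, WT in blue and ob/ob in red, with the flagged spot open. All 9 kept spots lie between 568 and 647 on the WT array and between 7620 and 9060 on the ob/ob array.

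Sele followed. Its single spot read 168 on the WT and 1230 on the ob/ob array, which gave 2.34 ± 0.21 (SD of the scanner's error model), or 5.07-fold. As high or higher were 224 genes (1.24%). Sele has 1 probe at 1 spot, so no other probe or spot checks it. With normexp background correction and 75th-percentile scaling, which adds an offset of 50 to every signal, the difference was 1.53, still past 2-fold.

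Selplg, the leukocyte-borne ligand of both selectins, was higher by both of its probes. The brighter probe read 154 on the WT and 690 on the ob/ob array, a difference of 1.64 ± 0.21 (SD of the scanner's error model), or 3.11-fold. The other read 38.0 and 164, a difference of 1.58 ± 0.23 (SD of the scanner's error model). The probes differed by 0.06, less than the SD of either. For scale, the SD between probes of the same gene was 0.33, taken over 3693 genes with several measured probes. Under the same normexp setting the Selplg difference was 0.70, under 2-fold.

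The receptors of the immunoglobulin family did not share a direction past 2-fold. Icam1, which binds the integrins LFA-1 and Mac-1, read 323 on the WT and 1080 on the ob/ob array. Its difference was 1.21 ± 0.20 (SD of the scanner's error model), or 2.31-fold, and 839 genes (4.63%) were as high or higher. This value lies close to the 2-fold line: it was 0.93 after median centring of each array and 0.91 under the normexp setting just named, both under 2-fold. Icam2, the ICAM that resting endothelium carries, was bright on both arrays, with 29072 and 48400. Its difference of 0.20 ± 0.20 (SD of the scanner's error model) was no larger than its SD. Over 9 other settings the Icam2 difference ran from -0.08, with median centring, to 0.54, and 8 of the 9 kept its sign. With quantile normalization it was 0.53. All these values lay within 2-fold.

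Vcam1, the receptor of VLA-4, stayed within 2-fold by both probes. The brighter probe (chr3:115813216-115813275) read 6833 on the WT and 15000 on the ob/ob array, a difference of 0.60 ± 0.20 (SD of the scanner's error model), or 1.52-fold. The other probe (chr3:115828953-115829012) read 999.9 and 2300, a difference of 0.67 and 0.07 from the first. Both exceeded the scanner's SD and neither reached 2-fold.

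Madcam1 went the other way from the rest. Its brighter probe read 865 on the WT and 450 on the ob/ob array, a difference of -1.48 ± 0.20 (SD of the scanner's error model), so that WT was 2.78-fold higher. The other probe read 30.9 and 15.5, a difference of -1.53 ± 0.36 (SD of the scanner's error model). Its ob/ob signal lay close to the dimmest measured signal on that array, 11.7. The probes differed by 0.05. As low or lower were 117 genes (0.645%).

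Aoc3 was represented by 1 probe (chr11:101200545-101200604), which read 3.36 on the WT and 5.41 on the ob/ob array. Neither signal was well above background, so no fold is given, and VAP-1 transcript was not detectable at this probe's sensitivity in either preparation.

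Ordered by difference, the members ran Selp, Sele, Selplg, Icam1, Vcam1, Icam2 and Madcam1. The step from Selplg to Icam1 (1.64 against 1.21) and the step from Vcam1 to Icam2 (0.60 against 0.20) are of the order of the SD between probes of a gene, 0.33. Other ways of scaling moved the median of all genes: it was -0.40 with array medians and -0.29 with normexp before 75th-percentile scaling, against -0.12 here. Relative to that median, Selp lay between 3.12 and 3.43 above it over the 9 other settings, Sele between 1.82 and 2.54, Selplg between 0.99 and 1.83, and Icam1 between 1.14 and 1.40. Vcam1 lay 0.72 to 1.08 above it, past 2-fold only with normexp before 75th-percentile scaling, Icam2 lay 0.31 to 0.63 above it, and Madcam1 stayed below it at -1.45 to -1.09.

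**Figure D3:**
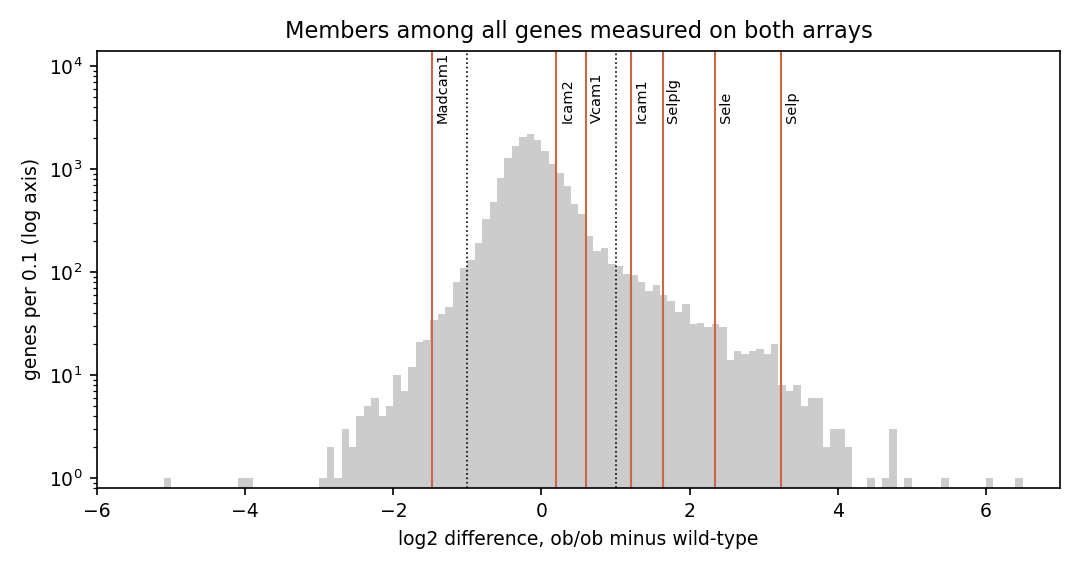
Histogram of the log2 differences (ob/ob minus WT) of the 18134 genes measured on both arrays, in steps of 0.1 with a log axis for the number of genes. Red lines mark the 7 measured members and dotted lines 2-fold; Selp lies farthest right at 3.24 and Madcam1 left of the dotted line at -1.48.

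Selp and Sele lie close together on chromosome 1, so the arrays allow a look at the genes around them. On build mm9 the Selp probe starts 91.9 kb after the Sele probe. A transcript that the file names LOC100047436, on the same strand 71.4 kb after Sele, read 79.4 and 762, a difference of 2.73, and 1.31 with normexp before 75th-percentile scaling. It lies 20.5 kb before the Selp probe, and whether it is a separate gene or a transcript of Selp was not settled, so its value may not be independent of that of Selp. F5, coagulation factor V, 162.5 kb after Sele, read 6.55 and 39.4 and was above background in ob/ob only, at least 2.21-fold higher. Bounds of this kind divide the ob/ob level by that of the dimmest measured signal on the WT array, or of the dim probe where that is higher. They were taken with 75th-percentile scaling of processed intensity only, and that of F5 lies close to 2-fold. The 8 flanking genes within 250 kb of Sele or Selp (Kifap3, BC055324, Scyl3, Mettl18, Slc19a2, Ccdc181, Blzf1 and Nme7) lay between -0.47 and 0.12. Within 250 kb of the other 6 members, 89 further genes were measured on both arrays, of which 3 were at least 2-fold higher and 1 lower, with a median of -0.18. Around Madcam1, 2 of 18 measured neighbours were higher and 1 was lower, and around Selplg 1 of 7 was higher. None of the measured neighbours of Icam1 (17), Icam2 (14), Vcam1 (7) or Aoc3 (26) passed 2-fold. Of all genes, 5.82% were at least 2-fold higher and 2.29% lower.

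**Figure D4:**
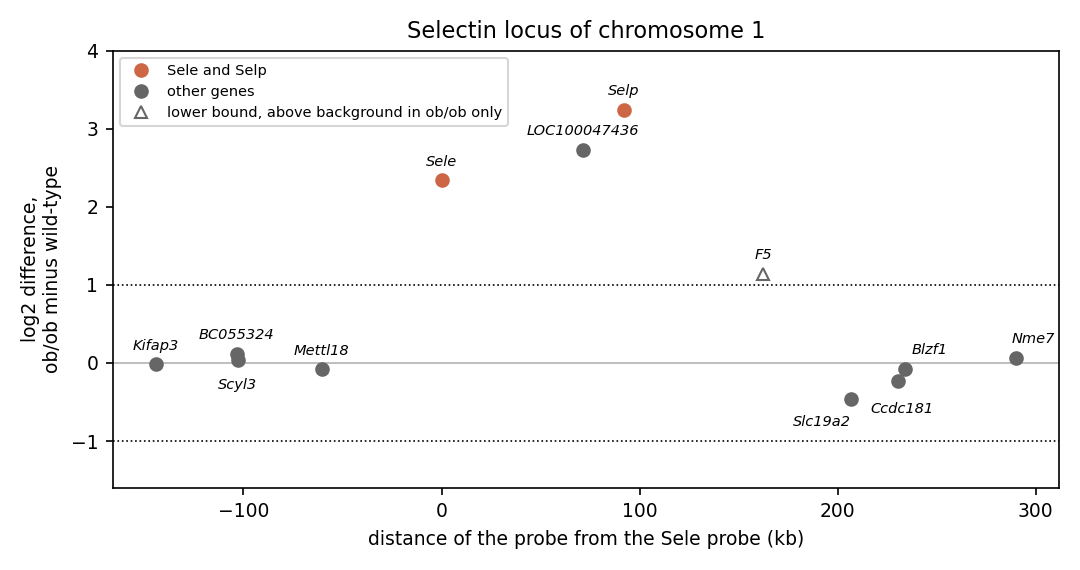
Log2 difference (ob/ob minus WT) of genes around Sele and Selp against the distance of their probe from the Sele probe in kb, with dotted lines at 2-fold. The triangle is the lower bound of F5, above background in ob/ob only. Sele, LOC100047436, Selp and F5 lie above the upper line, while the 8 flanking genes lie between -0.47 and 0.12.

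Promoters of 4 of the 8 members were found in a RefSeq table of build GRCm38.p6: those of Selp, Sele and Icam1, which were higher, and of Madcam1, which was lower. They are printed to show what genes of opposite direction have in common. Each line gives the 250 bases before the annotated start, + strand, with matches to 3 motifs in capitals. The first is GGNNNTTCC, the pattern of many NF-kB sites, whose other strand reads GGAANNNCC. The next is TGACTCA, a site of AP-1 factors. The last is TATAAA, the core promoter box. Both strands were searched, and no match overlapped a match of another motif.
Selp, chr1:164115014-164115263: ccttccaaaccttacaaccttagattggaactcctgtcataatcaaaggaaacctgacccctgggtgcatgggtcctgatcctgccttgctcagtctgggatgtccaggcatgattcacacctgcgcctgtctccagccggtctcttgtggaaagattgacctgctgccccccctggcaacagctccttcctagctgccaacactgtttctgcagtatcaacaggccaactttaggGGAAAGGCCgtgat
Sele, chr1:164047984-164048233: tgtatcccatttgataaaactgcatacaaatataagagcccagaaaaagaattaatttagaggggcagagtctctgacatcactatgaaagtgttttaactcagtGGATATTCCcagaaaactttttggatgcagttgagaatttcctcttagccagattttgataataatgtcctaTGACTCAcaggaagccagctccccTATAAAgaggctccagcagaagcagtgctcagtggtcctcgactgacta
Icam1, chr9:21015690-21015939: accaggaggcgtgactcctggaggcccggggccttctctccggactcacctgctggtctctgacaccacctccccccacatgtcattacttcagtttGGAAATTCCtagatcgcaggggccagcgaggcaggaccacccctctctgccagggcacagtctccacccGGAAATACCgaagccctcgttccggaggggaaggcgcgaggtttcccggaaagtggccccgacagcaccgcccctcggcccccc
Madcam1, chr10:79664309-79664558: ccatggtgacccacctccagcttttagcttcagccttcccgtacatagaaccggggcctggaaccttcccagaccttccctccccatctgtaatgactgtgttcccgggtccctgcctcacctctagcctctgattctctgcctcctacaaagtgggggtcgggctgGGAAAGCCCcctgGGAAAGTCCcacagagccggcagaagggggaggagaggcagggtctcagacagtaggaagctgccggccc
All 4 windows hold GGNNNTTCC, which 15.7% of 32851 promoter windows of this length do. Icam1 holds it at 2 places, from -153 to -145 and from -84 to -76 counted from the start. Madcam1 also holds it at 2 places, from -83 to -75 and from -70 to -62, although its signal was lower in ob/ob. Sele holds 1, from -145 to -137, and Selp 1, from -14 to -6. Only the Sele window among these 4 also holds the AP-1 letters TGACTCA (4.46% of all windows) and the box TATAAA (12.4%). The motifs were picked with the sequences known, and a match shows letters, not a bound factor.

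The rest of the adhesion machinery was followed over 8 lists with 119 genes, none of them a member. The lists were chosen with earlier results of these data known, so their shares describe these arrays and test nothing. Some of their genes, such as Vsig4 and Itgax, are also markers of macrophages or dendritic cells. Of these, 102 were measured on both arrays: 20 (19.6%) were at least 2-fold higher and 3 (2.94%) lower, beside 5.82% and 2.29% of all genes, with a median of 0.05 against -0.12. A further 5 were above background in ob/ob only and 12 on neither array. With array-median centring, 11 were higher and 7 lower and the median was -0.23, where that of all genes was -0.40.

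Some counter-receptors on leukocytes were among the higher genes. Of 13 measured leukocyte receptors and ligand carriers, 6 were higher and 0 lower, and 3 were higher with normexp before 75th-percentile scaling. Itgax, the integrin subunit CD11c of dendritic cells and macrophages, read 33.4 on the WT and 561 on the ob/ob array, a difference of 3.54, and 1.14 under that setting. Itga4, the alpha-4 chain that pairs to bind VCAM-1 and MAdCAM-1, read 25.6 and 336, a difference of 3.18 that was 0.37 under the same setting. The brightest of the list lay within 2-fold: Glg1, a ligand of E-selectin, had -0.46 and Itgb1, the integrin beta-1 chain, 0.07. Integrin Itgb2, the beta-2 chain that pairs to bind ICAM-1, was 1.60 higher. Itgam, the alpha chain of Mac-1, read 2248 on the WT and 3070 on the ob/ob array, a difference of -0.08.

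Enzymes that build the sugars of selectin ligands gave 2 higher and 0 lower of 11. Fut4, a fucosyltransferase, differed by 2.08 and Gcnt1, a branching enzyme, by 1.03. Both were dim, with WT signals of 18.7 and 118, and 0 of the 11 were higher with normexp, under either scaling. With normexp before 75th-percentile scaling Fut4 turned to -0.77 and 2 of the 11 were lower, so no direction is given for it. Their brightest members were B4galt1, a galactosyltransferase, at -0.25 and Tpst2, a tyrosine sulfotransferase, at -0.73. Tpst2 was at -1.01 with array-median centring.

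Molecules by which endothelium holds its junctions and anchors its receptors differed little. None of the 13 junction and transmigration genes passed 2-fold, at a median of -0.28. With array-median centring 1 was lower and the median was -0.55, where that of all genes was -0.40. With quantile normalization the median was -0.05. The brightest were the junctional adhesion molecule F11r (-0.08) and VE-cadherin, Cdh5 (-0.44). Among 12 measured linkers, sheddases and clustering proteins 1 was higher, Ezr (ezrin, 1.24; 0.96 with array-median centring), while its relative Msn (moesin) had -0.59 and the tetraspanin Cd81 -0.50. Weibel-Palade bodies store P-selectin, and of 12 of their measured content and secretion genes 1 was higher: Vwf, the von Willebrand factor gene, read 364 on the WT and 1430 on the ob/ob array, a difference of 1.44. Cd63, the granule tetraspanin that accompanies P-selectin, had -0.41, and Angpt2, another stored protein, -0.08.

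Among cytokines that induce adhesion receptors, and their receptors, 5 of 14 were higher and 0 lower. Il1b (interleukin 1 beta) read 16.6 on the WT and 1607 on the ob/ob array, a difference of 6.07, and 2.64 with normexp before 75th-percentile scaling. Osmr, the oncostatin M receptor, had 1.24, and 0.96 with array-median centring, which left 1 of the 14 higher. The brightest were the TNF receptor Tnfrsf1a at -0.29 and the lymphotoxin receptor Ltbr at -0.49. In the NF-kB list 0 of 11 were higher and 2 lower. These were the kinase subunits Ikbkg (-1.61) and Ikbkb (-1.33), while the inhibitor Nfkbia had -0.18 and the subunit Rela -0.55.

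Other leukocyte traffic molecules gave 5 higher and 1 lower of 16. Ackr1, a chemokine-binding receptor of venules, read 849 on the WT and 8600 on the ob/ob array, a difference of 2.81. Vsig4, a complement receptor of Kupffer cells, had 3.20. Ccl21a, the chemokine of lymphatic and lymphoid endothelium, read 74.1 and 18.1, a difference of -2.57, which was -0.89 with normexp and quantile normalization. The brightest were the chemokines Ccl2 at -0.37 and Cxcl10 at 0.69. Of the bright genes within 2-fold, Itgb1, B4galt1, F11r, Cd63, Angpt2, Tnfrsf1a, Nfkbia and Ccl2 changed sign under at least 1 other setting, so no direction is given for them.

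**Figure D5:**
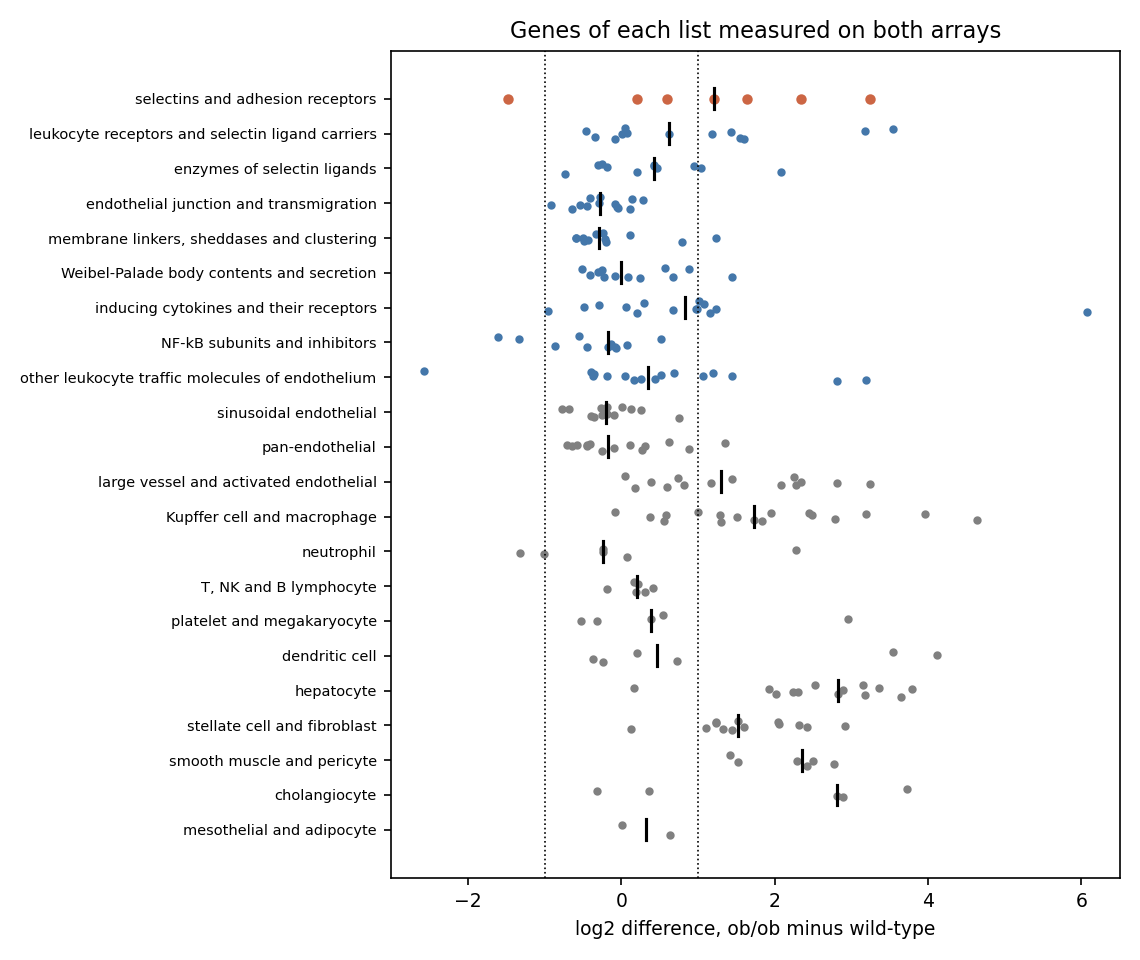
Log2 difference (ob/ob minus WT) of each gene measured on both arrays, 1 line per list: the 7 members in red, the 8 adhesion lists in blue and the 13 marker lists of cell types in grey, with a black bar at the median of each list and dotted lines at 2-fold. Of the hepatocyte list 12 of 13 genes lie past the right-hand line, and of the sinusoidal endothelial list 0 of 14.

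Markers of several other cell types, but not of all, differed along with the members. Of 12 mesothelial and adipocyte markers, 2 were measured on both arrays and 0 passed 2-fold. Platelet, neutrophil, lymphocyte and dendritic cell markers are given further below. The labelled cell type was checked against markers of sinusoidal endothelium: all 14, such as Stab1 and Fcgr2b, were measured on both arrays and 0 passed 2-fold, with a summed level of 109.8 on the WT and 90.0 on the ob/ob array, in units of the 75th percentile. All 14 pan-endothelial markers were measured too, of which 1 was higher (summed level 385.9 and 274.6). Egfl7 alone made up 187.1 and 125.2 of that sum. The medians of the sinusoidal and pan-endothelial lists were -0.20 and -0.17. They were -0.06 and 0.03 with quantile normalization, and -0.48 and -0.45 with array-median centring, so no direction is given for either sum. Of 14 markers of large vessels and activated endothelium 8 were higher, and their summed level was 37.9 and 63.0; that list holds Selp, Sele and Vcam1 themselves. Of 18 Kupffer cell and macrophage markers, 17 were measured and 13 were higher, with a summed level of 65.8 and 176.3; Cd163 was not above background. Hepatocyte markers were higher for 12 of 13 measured (7.61 and 42.8), stellate cell and fibroblast markers for 12 of 13 (16.0 and 52.3; 3 under the normexp setting with 75th-percentile scaling), smooth muscle and pericyte markers for 6 of 6 (2.05 and 8.78) and cholangiocyte markers for 3 of 5 (0.733 and 5.64). The smooth muscle and pericyte list holds 12 genes, of which 2 more were above background in ob/ob only. Another 4 of them, Myh11, Cnn1, Lmod1 and Synpo2, were above background on neither array. Acta2 and Des stand in this list and in the stellate one. With normexp before 75th-percentile scaling 4 of the smooth muscle and pericyte list were higher. Of the cholangiocyte list, 4 more (Krt7, Krt19, Epcam and Sox9) were above background in ob/ob only, at least 1.01-fold to 1.87-fold higher. Cldn4, of the same list, was above background in WT only, at least 9.58-fold higher there. The part of these cells in the differences of the members was not tested. In such bulk RNA, more cells of a type and more RNA per cell cannot be told apart.

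P-selectin is also a platelet protein and PSGL-1 a leukocyte protein, so those markers stand beside them. Of 12 platelet and megakaryocyte markers, 5 were measured on both arrays and 1 of them was higher, with a summed level of 16.0 and 22.5. Most of that sum was Clec1b (14.5 and 11.7); the other 11 markers summed to 1.49 and 10.8. The higher one was Pf4, platelet factor 4, with signals of 1348 and 15100 and a difference of 2.95; Ppbp was above background in ob/ob only, at least 8.06-fold higher. Of the platelet surface receptors, Gp5 (-0.52), Itga2b (0.38) and Clec1b (-0.32) were measured on both arrays and Gp1bb in ob/ob only, while Gp1ba, Gp6 and Gp9 were above background on neither. The part of platelets in the Selp difference was not tested. Beside Selplg stand the macrophage markers above, of which Marco read 25777 and 90900 (1.29) and Cd5l 18181 and 65000 (1.30); their part in the Selplg difference was not tested either.

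Among the genes of all the lists, those whose difference lay nearest to that of Selp were Vsig4 (3.20), Itga4 (3.18) and Apoh, a hepatocyte apolipoprotein (3.17). Nearest to Sele were Lrat (2.32) and Abcc9 (2.29), of the stellate cell and pericyte lists, and Ttr (2.31), of the hepatocyte list. Nearest to Selplg came Pdgfrb (1.60), Itgb2 (1.60) and Itgb7 (1.55), and nearest to Icam1 came Cx3cl1 (1.20), Itgal (1.19) and Colec11 (1.23). For Madcam1 they were Ikbkg (-1.61), Ikbkb (-1.33) and Mpo (-1.32). Of these, Itga4, Lrat, Ttr, Pdgfrb, Itgb7, Cx3cl1, Itgal, Colec11 and Mpo lay within 2-fold under at least 1 other setting. Likeness here is the gap between log2 differences over 2 arrays and describes these arrays only.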

How the data were processed

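RNA of 1 WT and 1 ob/ob LSEC preparation was read on 2 one-colour Agilent arrays (design 026655). The deposited scanner files hold intensity on a linear scale; Agilent Feature Extraction 11.0.1.1, named in the submitters' processing notes, subtracted background and flagged spots, per the file headers. A deposited table made by the authors lists 24868 features, each as the ratio of that intensity to the 75th percentile of the array (column medians 0.614 and 0.648). It is linear and not centred per gene, and its columns are named by sample, which settles the direction. Both arrays lay on the same slide, per the file headers.

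From the 43020 non-control spots, flagged spots were dropped (148 on WT, 120 on ob/ob) and none was saturated. Signals were divided by the 75th percentile of their array, log2 was taken, and spots of a probe were averaged. Each gene was taken at its probe of highest mean log2 level. Names came from accessions in a RefSeq table for 26055 of 39429 probes (102 more through another accession), and otherwise from the file. With 1 array per group no test or p-value was possible, and the precision is limited by the number of arrays.

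All members were reported; of each adhesion list the 2 largest differences past 2-fold each way and the 2 brightest genes, and of each marker list the 2 brightest, were eligible to be named, with the 3 genes nearest each member; other genes were picked after their values were seen. Values of one further gene are not reported here. The members and lists were chosen with earlier results of these data known. Alternatives varied scaling, background correction (limma 3.58.1 in R 4.3.3), flags, filter, probe choice, source and fold. Work was done in Python 3.11.15 with pandas 2.3.3, and the steps were tested on simulated data.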

Additional observations from a re-analysis of the deposited data

How the results depend on the processing

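No paired analysis was possible because each genotype has 1 array, and for the same reason no array could be left out. Of the 7 measured members, Selp, Sele, Vcam1, Icam2 and Madcam1 kept their side of 2-fold in all 9 alternatives; Selp ranged from 2.96 to 3.33, Sele from 1.53 to 2.36 and Madcam1 from -1.76 to -1.27. Selplg (0.70) and Icam1 (0.91) fell under 2-fold with normexp and the 75th percentile, which left 2 members higher and 4 within 2-fold; by construction that setting adds 50 to every signal, and all genes then counted 369 higher and 3818 lower. At 1.5-fold 1 member lay within the threshold; at 3-fold 0 members were lower and 4 lay within. Of the adhesion list genes, 11 were higher and 7 lower, with a median of -0.23, when arrays were centred on their medians, where all genes counted 766 higher and 976 lower. They counted 12 higher and 9 lower under that normexp setting, 13 higher with normexp and quantile normalization (all genes 508 and 130), 29 higher and 10 lower at 1.5-fold (9.80% and 9.09% of all genes), and 7 higher and 2 lower at 3-fold (3.0% and 0.502%). The cause of these shifts was not tested. Centring on the running median at each gene's level, chosen after seeing the data, kept 4 members higher and 1 lower. Of 65 other named genes, 48 kept their side of 2-fold in every alternative. Probes near background, such as that of Aoc3, give no ratio.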

Other observations

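Other leukocytes that carry selectin ligands and integrins left a mixed picture. Of 14 neutrophil markers, 6 were measured on both arrays, with 1 higher and 2 lower. Another 5 were above background in ob/ob only, at least 9.30-fold higher for Mmp8, 5.77 for S100a9, 2.82 for Mmp9 and 2.77 for S100a8. No fold is given for Ltf, the last of them. Retnlg was above background in WT only, at least 1.85-fold higher there. The brightest, Csf3r, read 42743 on the WT and 52200 on the ob/ob array. Of 16 lymphocyte markers, 6 were measured on both arrays, and 0 of these passed 2-fold. Another 4 were above background in ob/ob only, at least 8.80-fold higher for Gzmb, 6.44 for Cd3d, 2.01 for Cd3g and 1.2 for Cd2. Lck, the brightest, read 457 and 817, a difference of 0.31. Among 10 dendritic cell markers, 6 were measured on both arrays and 2 were higher. The brightest, Siglech, read 19506 and 21800, a difference of -0.37. In the same units Siglech had 19.7 and 15.2, while the other 9 markers summed to 1.15 and 3.72. Ccr7, picked after its values were seen, read 107 and 2690, a difference of 4.12. Neighbouring adhesion genes of the ICAM family on chromosome 9 were dim: Icam5 read 24.3 and 36.5, a difference of 0.05, and Icam4 was above background in ob/ob only, at least 1.34-fold higher.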
